A study of Mus musculus with 4 samples.

Results

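The genes described here encode 10 receptors of the tumour necrosis factor (TNF) receptor family that B cells or the lymphocytes around them use: Cd40, Tnfrsf13b, Tnfrsf13c, Fas, Tnfrsf1a, Tnfrsf1b, Tnfrsf4, Tnfrsf9, Tnfrsf18 and Cd27. They were chosen by name, and each was represented by the single probe set that the platform annotation gave to that symbol alone. They are 10 of 22180 genes named on the array, and 9 of them were among the 12456 genes whose signal passed the floor in at least 1 array. Tnfrsf1a did not.

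B lymphocytes were sorted by their B220 surface protein from suspensions of spleen, thymus and lymph node of C57BL/6 mice, and their total RNA was hybridised to Affymetrix arrays. The 4 groups were wild-type cells without stimulation, wild-type cells with stimulation, Tilcara cells without stimulation and Tilcara cells with stimulation, all on the C57BL/6 background. Tilcara (Til) is a mouse mutant of PKCbeta, a kinase that couples the B cell antigen receptor to NF-kB transcription factors; the mice's age, sex and number are not given in the sources used. Stimulation lasted 4 hours and combined 10 ng/mL of PMA (phorbol 12-myristate 13-acetate), which activates PKC enzymes directly, with 1 µM of the calcium ionophore A23187. Each group was 1 array, so no difference between groups has a replicate behind it. Values are log2 signals from RMA, so that 1 unit stands for 2-fold, and the floor of 3.83 is the median over all probe sets with 1 gene name; a fold with a signal under it is approximate.

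TNF receptors are membrane proteins that bind trimeric ligands of the TNF family on neighbouring cells or in solution. Most pass the signal on through TRAF adaptor proteins to NF-kB and MAP kinases, while Fas and the type 1 TNF receptor carry a death domain that can recruit the caspase-activating adaptor FADD. On B cells, CD40 receives help from T cells, the BAFF receptor (Tnfrsf13c) keeps mature cells alive, and TACI (Tnfrsf13b) binds both BAFF and APRIL.

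The sorted cells carried B cell transcripts in all 4 arrays. Of 12 B cell markers listed, 11 were measured and each read at least 5.52 in every array; their median was 10.30 and 10.33 in the non-stimulated wild-type and Tilcara arrays and 7.85 and 8.23 in the stimulated ones. An additive limma fit of stimulation and genotype was made, with p-values adjusted by Benjamini-Hochberg over 12456 genes. It found that 9 of the 11 fell with stimulation, where 22.8% of all genes did. In RNA from pooled cells, fewer cells of a type and less RNA per cell cannot be told apart. The levels of different genes are not set against each other below, because each probe set has its own response to its target.

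**Figure D1:**
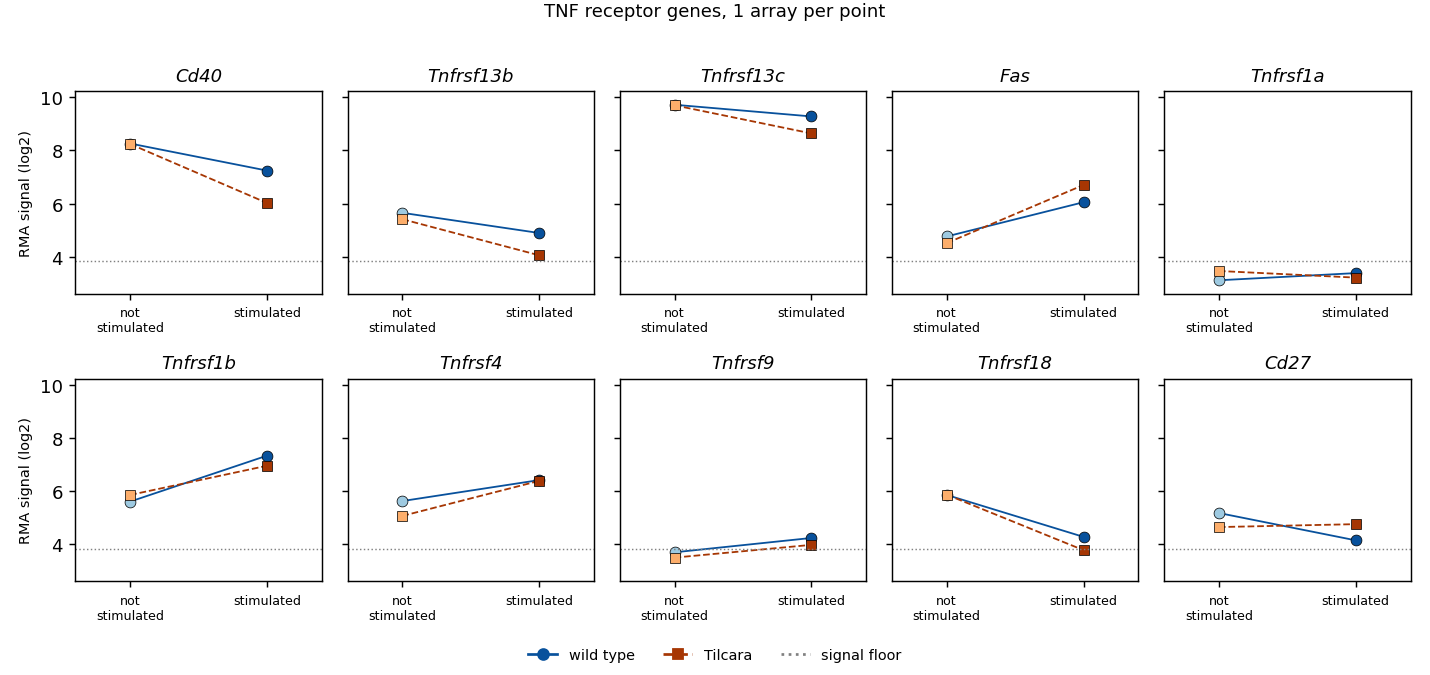
RMA log2 signal (vertical axis, the same range in each panel) of the 10 TNF receptor genes without and with stimulation, in wild type (circles, solid lines) and Tilcara (squares, dashed lines); each point is 1 array and the dotted line is the signal floor of 3.83. Cd40, Tnfrsf13b, Tnfrsf13c and Tnfrsf18 slope down and Fas, Tnfrsf1b, Tnfrsf4 and Tnfrsf9 slope up in both genotypes, whereas Cd27 slopes down in wild type alone and Tnfrsf1a stays under the floor.

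With stimulation, the receptors for T cell help and for BAFF had lower signals, and Fas and the type 2 TNF receptor had higher ones, in both genotypes. In wild type, 2 of the 10 genes, Fas and Tnfrsf1b, were at least 2-fold higher, where 13.4% of all genes were, and 3 of 10, Cd40, Tnfrsf18 and Cd27, were at least 2-fold lower, against 15.9%. In Tilcara, 3 of 10 were at least 2-fold higher (Fas, Tnfrsf1b and Tnfrsf4, against 11.9%) and 4 of 10 at least 2-fold lower (Cd40, Tnfrsf13b, Tnfrsf13c and Tnfrsf18, against 14.3%). The median difference over the 10 genes was −0.09 in wild type and −0.07 in Tilcara, against 0.03 and 0.04 over all genes, so the family did not move one way as a whole.

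Taking the genotypes as the 2 arrays of each state, limma found that 4 of the 9 tested receptors rose, where 22.0% of all genes did, and that 4 fell, where 22.8% did; Cd27 was not called. Tnfrsf9 entered the fit only through its stimulated arrays, and without it 3 of the other 8 rose. That fit has 1 residual degree of freedom, which is the difference between the responses of the genotypes. limma adds 3.464 prior degrees of freedom from a variance shared over all genes. The errors thus combine how alike the genotypes responded with that shared variance, and do not measure the spread between mice.

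Cd40 encodes the receptor for CD40 ligand, through which T cells drive B cell proliferation and class switching. Its signal was 8.26 in non-stimulated wild type, 8.24 in non-stimulated Tilcara, 7.24 in wild type with stimulation and 6.02 in Tilcara with it. The non-stimulated arrays were level and the stimulated Tilcara array was the lowest of the 4. The stimulated signal was 2.02-fold lower in wild type and 4.67-fold lower in Tilcara, and over both genotypes Cd40 fell (limma, log2 change −1.62, SE 0.32, adjusted p = 0.0172). The wild-type difference of −1.01 lies at the 2-fold limit and read −1.0, just short of it, after each array was centred on its median.

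The receptors of the BAFF system went the same way. Tnfrsf13c, for the BAFF receptor that mature B cells need to survive, read 9.72 in non-stimulated wild type, 9.28 in stimulated wild type, 9.70 in non-stimulated Tilcara and 8.64 in stimulated Tilcara. As with Cd40, the non-stimulated arrays were level and stimulated Tilcara was lowest. The response was −0.44 in wild type and −1.05 in Tilcara, and the gene fell over both (limma, log2 change −0.74, SE 0.21, adjusted p = 0.0434); without the signal filter the adjusted p was 0.069. Tnfrsf13b, for TACI, which restrains B cell numbers and supports antibody responses, read 5.65 and 4.89 in wild type and 5.41 and 4.05 in Tilcara, without and with stimulation. It fell too (limma, log2 change −1.07, SE 0.20, adjusted p = 0.0156), by 1.70-fold in wild type and 2.58-fold in Tilcara.

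Fas and the type 2 TNF receptor were higher with stimulation. Fas, the death receptor through which activated B cells can be removed, read 4.76 and 6.05 in wild type and 4.51 and 6.70 in Tilcara, without and with stimulation. Both stimulated arrays lay above both non-stimulated ones, and the highest was stimulated Tilcara, so that the response was 2.45-fold in wild type and 4.57-fold in Tilcara. Fas rose over both genotypes (limma, log2 change 1.74, SE 0.26, adjusted p = 0.00769).

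Tnfrsf1b, for the type 2 TNF receptor, which lacks a death domain and signals through TRAF proteins, read 5.60 and 7.33 in wild type and 5.85 and 6.95 in Tilcara. Here the larger response was that of wild type, 3.32-fold against 2.15-fold, and the Tilcara difference of 1.10 became 0.96 after cyclic loess normalization. The gene rose over both (limma, log2 change 1.42, SE 0.21, adjusted p = 0.00755). Tnfrsf1a, for the death domain receptor of TNF, stayed between 3.11 and 3.46, under the floor in all 4 arrays, and gives no order between them.

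The remaining 4 genes encode receptors best known from T cells. Tnfrsf4, for the costimulatory receptor OX40, read 5.62 and 6.41 in wild type and 5.06 and 6.38 in Tilcara, without and with stimulation. The stimulated arrays were level at the top and the non-stimulated Tilcara array was lowest. It rose over both genotypes (limma, log2 change 1.06, SE 0.19, adjusted p = 0.0133).

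Tnfrsf18, for the costimulatory receptor GITR, is the gene next to Tnfrsf4 on mouse chromosome 4 in the RefSeq assembly GRCm38.p6, and it went the opposite way. It read 5.85 and 4.27 in wild type and 5.86 and 3.77 in Tilcara. The non-stimulated arrays were level, and the signal was 2.99-fold and 4.25-fold lower with stimulation, the Tilcara value ending just under the floor. Tnfrsf18 fell (limma, log2 change −1.83, SE 0.19, adjusted p = 0.00324). Among markers of other cells, those of NK cells were lower in the same arrays. All 6 tested NK cell markers fell (limma), and the median response of the 7 measured was −1.23 in wild type and −1.34 in Tilcara. Of the tested myeloid markers 3 of 7 fell (limma, list medians −0.92 and −0.08), as did 1 of 12 tested T cell markers and 22.8% of all genes. Of 4 tested regulatory T cell markers, Il2ra and Ctla4 rose, where 22.0% of all genes did. In that list 0 fell, and Foxp3 and Lrrc32 were not called. Il2ra read 4.57 and 10.68 in wild type and 4.63 and 10.58 in Tilcara, without and with stimulation. Foxp3 read 3.93 to 4.79 over the 4 arrays, and the arrays do not show which cells gave the Il2ra signal. Ctla4 passed the floor in stimulated wild type alone. Of these called markers, the T cell one, all 3 myeloid ones and 3 of the NK ones passed the floor in non-stimulated arrays only. Of 5 tested plasma cell markers 2 rose and 0 fell (limma). In the dendritic and germinal centre lists, each with 4 tested, 1 rose and 1 fell. The dendritic marker Siglech and the germinal centre marker Mki67 fell, and both passed the floor in non-stimulated arrays only. The part of other cells in the Tnfrsf18 difference was not tested.

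Tnfrsf9, for the costimulatory receptor CD137, stayed close to the floor, at 3.69 and 4.23 in wild type and 3.49 and 3.97 in Tilcara, and passed it only in the stimulated arrays. It entered the fit through the arrays where it was high, so its call (limma, log2 change 0.51, SE 0.15, adjusted p = 0.0483) is no independent support for a rise. The call ended under 4 alternatives: the adjusted p was 0.0504 with median centring, 0.078 without the filter, 0.0926 with a prior variance that follows mean signal and 0.0542 without genotype in the fit.

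Cd27, the receptor for CD70 that marks memory B cells in humans and is carried by resting T cells, was the one receptor past the floor whose genotypes responded in opposite directions. It read 5.17 and 4.14 in wild type and 4.64 and 4.75 in Tilcara, without and with stimulation. The highest array was non-stimulated wild type and the lowest stimulated wild type, with both Tilcara arrays between them. The responses were −1.03 and 0.12, and limma did not call the gene (log2 change −0.46, SE 0.31, adjusted p = 0.293). After cyclic loess the wild-type difference was −0.96. Of 14 measured T cell markers, 3 were at least 2-fold lower with stimulation in wild type, where 15.9% of all genes were. In Tilcara 0 were, against 14.3%, and the list medians were −0.39 and −0.06. The 3 were Cd3g (−1.94 in wild type and −0.38 in Tilcara), Cd3d (−1.81 and −0.98) and Cd8b1 (−1.24 and 0.11). The difference between responses passed 2-fold upwards in 2 of the 14 and downwards in 1, Cd28 (0.56 and −0.50). The part of T cell transcripts in the Cd27 difference was not tested.

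**Figure D2:**
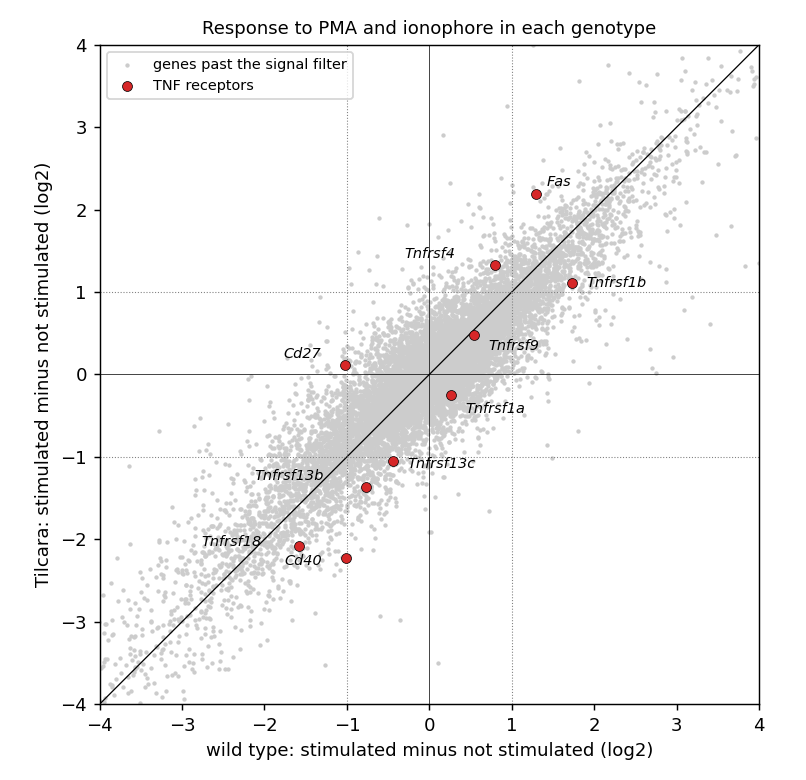
Difference between the stimulated and the non-stimulated array (log2) in wild type (horizontal axis) and in Tilcara (vertical axis) for the genes past the signal filter (grey) and the 10 TNF receptor genes (red); dotted lines mark 2-fold, the diagonal marks equal responses, and 110 genes beyond 4 on either axis are not drawn. Cd40 (−1.01 and −2.22) and Fas (1.29 and 2.19) lie farther from 0 in Tilcara, Tnfrsf1b (1.73 and 1.10) farther from 0 in wild type, and Cd27 (−1.03 and 0.12) at the height of 0.

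Upstream sequences were matched by symbol for 9 of the 10 genes in the RefSeq promoter table of build GRCm38.p6, with 2 start sites for Tnfrsf9. Cd40 had no entry there. The 250 bases before each start were searched on both strands for the 10-base kB consensus of NF-kB, for the AP-1 element TGANTCA and for GGAAA, the core of NFAT elements. A kB match lay before 1 of the 9 genes, where 3.9% of all 32851 promoter entries held one; an AP-1 match lay before 2, Fas and Tnfrsf9, where 6.75% of entries did; and GGAAA lay before 7, where 55.6% did. Shown are the upstream bases of Fas and Tnfrsf9, which have a kB or AP-1 match, and of the neighbours Tnfrsf4 and Tnfrsf18, which moved in opposite directions. Each is written 5′ to 3′ in the direction of the gene, with kB and AP-1 matches in capitals.
Fas (chr19:34290409-34290658, plus strand): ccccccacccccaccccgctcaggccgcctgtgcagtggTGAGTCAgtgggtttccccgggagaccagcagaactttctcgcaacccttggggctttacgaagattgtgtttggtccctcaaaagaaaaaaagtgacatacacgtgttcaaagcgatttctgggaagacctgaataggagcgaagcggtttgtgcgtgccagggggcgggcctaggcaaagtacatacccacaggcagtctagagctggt
Tnfrsf9, the start site farther along the gene (chr4:150927749-150927998, plus strand): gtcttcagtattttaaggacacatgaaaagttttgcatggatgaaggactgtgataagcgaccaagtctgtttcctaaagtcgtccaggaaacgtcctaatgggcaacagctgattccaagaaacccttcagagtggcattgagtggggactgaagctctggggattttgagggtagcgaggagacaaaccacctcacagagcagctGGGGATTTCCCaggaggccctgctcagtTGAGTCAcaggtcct
Tnfrsf4 (chr4:156013445-156013694, plus strand): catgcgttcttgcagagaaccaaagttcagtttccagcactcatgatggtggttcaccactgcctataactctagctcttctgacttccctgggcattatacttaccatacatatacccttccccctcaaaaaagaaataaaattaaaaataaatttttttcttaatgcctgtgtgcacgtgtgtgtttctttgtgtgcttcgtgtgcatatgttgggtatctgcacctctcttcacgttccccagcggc
Tnfrsf18 (chr4:156026072-156026321, plus strand): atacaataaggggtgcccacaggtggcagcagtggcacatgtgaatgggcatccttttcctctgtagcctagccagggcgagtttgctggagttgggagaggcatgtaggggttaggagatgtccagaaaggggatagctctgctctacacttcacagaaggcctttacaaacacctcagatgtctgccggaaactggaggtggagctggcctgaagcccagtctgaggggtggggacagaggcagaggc
The Tnfrsf9 stretch holds overlapping kB matches, GGGGATTTCC on one register and GGGATTTCCC on the next, the first starting 43 bases before the start site, and an AP-1 match starting 15 bases before it. The AP-1 match of Fas starts 211 bases before its start site. Tnfrsf4 and Tnfrsf18 have no capitals, which says only that these letters are not in this window. A match describes the letters and not binding, and the array's single probe set for Tnfrsf9 does not separate its start sites.

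Before stimulation, none of the 10 receptors differed 2-fold between the genotypes, where 0.425% of all genes were at least 2-fold higher in Tilcara and 0.658% at least 2-fold lower. Cd40, Tnfrsf13c and Tnfrsf18 were level, with Tilcara minus wild type at −0.02, −0.02 and 0.01. The farthest were Tnfrsf4 at −0.56 and Cd27 at −0.53; 3.84% and 4.38% of all genes lay at least as low. Tnfrsf1b was higher in Tilcara by 0.25, and Tnfrsf13b (−0.24), Fas (−0.25) and Tnfrsf9 (−0.20) were lower.

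Most listed markers of T cells, which carry OX40 and CD27, were lower in the same array. Of 14 measured of 17 listed, 11 were lower in non-stimulated Tilcara, with a median of −0.46, led by Thy1 (−1.86) and Cd3g (−1.16). In the non-stimulated wild-type and Tilcara arrays 9 and 6 of the 14 were at or above the floor, and the log2 of their summed linear signal ran from 7.61 to 8.25 over the 4 arrays. Cd3e of the T cell receptor complex read 3.99 in non-stimulated wild type and under the floor in the other arrays, and Cd4 read 3.87 and was under it elsewhere. Cd3d of the same complex read 5.09 in non-stimulated wild type and 4.59 in non-stimulated Tilcara, and was under the floor with stimulation. Lat (4.39 to 5.62), Cd5 (4.41 to 5.52) and Bcl11b (3.87 to 4.41) passed the floor in all 4 arrays. The 3 markers higher in non-stimulated Tilcara were Cd6 (0.36), Cd28 (0.23) and Bcl11b (0.20). The part of T cell transcripts in the differences of Tnfrsf4 and Cd27 was not tested.

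Transcripts of myeloid cells stood apart in the non-stimulated wild-type array. All 12 myeloid markers were lower in non-stimulated Tilcara, with a median of −0.80; S100a8 read 9.0 in non-stimulated wild type and 3.81 in non-stimulated Tilcara, S100a9 read 7.61 and 4.09, Lyz2 read 5.99 and 3.43, and Camp differed by −1.19. The log2 of their summed signal was 9.81 in that array and 6.55 to 6.89 in the others. In the non-stimulated wild-type array 6 of the 12 were at or above the floor, among them Adgre1 (4.70), Itgam (4.10) and Fcgr1 (3.92), and in each of the other arrays 1 of the 12 was. Csf1r read 3.60 to 3.94 and Ly6g 1.71 to 2.46 over the 4 arrays. Tnfrsf1b, which myeloid cells also carry, read 5.60 in non-stimulated wild type and 5.85 in non-stimulated Tilcara. The plasma cell gene Jchain was lower by 1.18 in non-stimulated Tilcara, while the NK cell, dendritic, B cell, regulatory T cell, plasma cell and germinal centre lists had medians of 0.19, −0.08, 0.03, −0.04, −0.08 and −0.31. The part of myeloid transcripts in the difference of Tnfrsf1b was not tested.

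**Figure D3:**
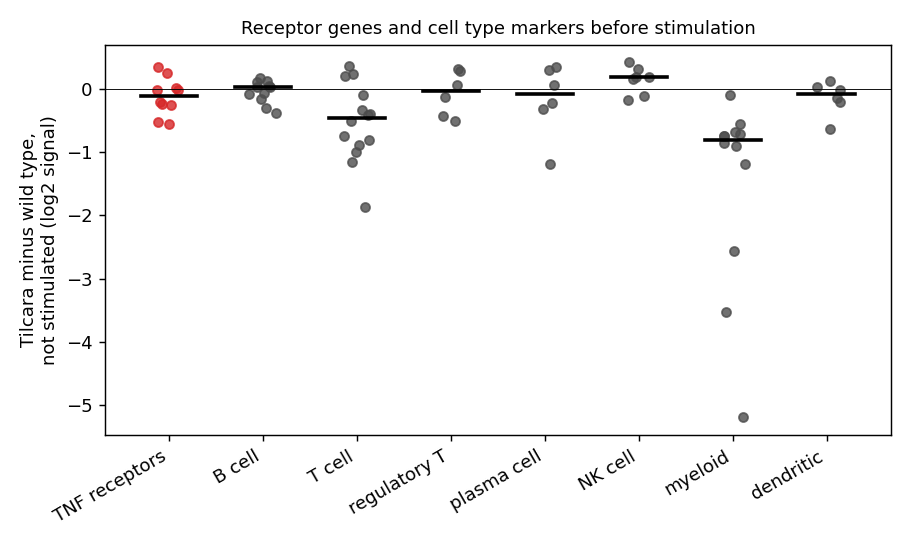
Tilcara minus wild type without stimulation (log2 signal, vertical axis) for each measured gene of the receptor family (red) and of the listed markers of other cells (grey), with black bars at the medians; points are spread sideways for legibility. The receptor genes lie between −0.56 and 0.35, T cell markers have a median of −0.46 and myeloid markers one of −0.80.

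With stimulation, 8 of the 10 receptors read lower in Tilcara than in wild type, against 47.9% of the 12456 genes past the floor. These 8 include Tnfrsf1a (−0.17), under the floor in all 4 arrays, and Tnfrsf4 (−0.03), which was level. Cd40 was the one past 2-fold. Cd40 was 2.34-fold lower in Tilcara (−1.23), where 0.747% of all genes were at least 2-fold lower and 0.417% lay at least as low as Cd40. Next came Tnfrsf13b at −0.84 (1.80-fold) and Tnfrsf13c at −0.64 (1.56-fold). Tnfrsf18 was lower by 0.50, Tnfrsf1b by 0.38 and Tnfrsf9 by 0.26.

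Fas and Cd27 were higher in stimulated Tilcara, by 0.65 and 0.61, and none of the 10 was 2-fold higher there, where 0.955% of genes were. Tnfrsf4 was level at −0.03. limma found no main effect of genotype for any of the 9 tested receptors, nor for any of the 12456 genes; 667 genes but none of these receptors had an unadjusted p under 0.05. The limma genotype estimate of Cd40 was −0.62 with an SE of 0.32 (adjusted p = 0.866). Beside these differences, the T cell list had a median of −0.18 between the stimulated arrays, with Thy1 at −1.17, and the regulatory T cell list one of −0.36, with Lrrc32 at −2.46 and Ctla4 at −1.23. Jchain and S100a9 were each lower by 1.01, with both S100a9 signals and the Tilcara signal of Jchain under the floor. The difference read −0.99 for Jchain with median centring and −0.97 for S100a9 with cyclic loess. Cd79b of the antigen receptor was higher by 1.61, while the B cell list had a median of −0.12. The part of these markers in the receptor differences was not tested.

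**Figure D4:**
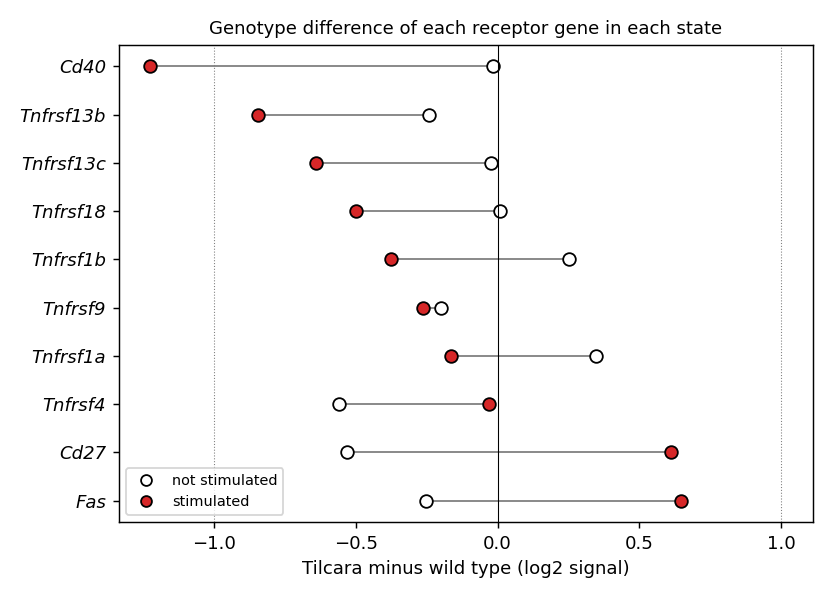
Tilcara minus wild type (log2 signal, horizontal axis) for each receptor gene without stimulation (open circles) and with it (filled circles), ordered by the stimulated difference; dotted lines mark 2-fold and each point compares 2 arrays. Cd40 goes from −0.02 to −1.23 and Fas from −0.25 to 0.65, while the gap of Tnfrsf4 closes from −0.56 to −0.03.

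The responses of the genotypes can be compared gene by gene, without a test. For 8 of the 10 receptors the direction was shared, as it was for 82.1% of all genes. Among these 8 the Tilcara response was the larger for 6, Cd40, Tnfrsf13b, Tnfrsf13c, Tnfrsf18, Fas and Tnfrsf4, while over the 10224 genes with a shared direction it was the larger for 42.2%. Subtracting the wild-type from the Tilcara response gave −1.21 for Cd40 and 1.14 for Cd27; 1 of 10 receptors was thus past 2-fold downwards, where 1.65% of all genes were, and 1 of 10 upwards, where 2.32% were. The other differences were 0.90 for Fas, −0.63 for Tnfrsf1b, −0.62 for Tnfrsf13c, −0.60 for Tnfrsf13b, 0.53 for Tnfrsf4, −0.51 for Tnfrsf18 and −0.06 for Tnfrsf9.

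Over the 4 arrays, the profile nearest to that of Cd40 was that of Myo1g, for a myosin of blood cells, followed by H2-T10, Cdkn2d and Akna, at Euclidean distances of 0.0416, 0.176, 0.287 and 0.295 log2 units after centring each gene on its mean. Myo1g read 8.66 and 7.68 in wild type and 8.68 and 6.48 in Tilcara, without and with stimulation. Nearest to Fas were Rcan1, for a calcineurin regulator (distance 0.121), the replication gene Mcm6 (0.191), Pebp1 (0.203) and Plcxd2 (0.224). Nearest to Tnfrsf18 were Tmem243 (0.0669), Blnk, for a linker of the B cell receptor (0.0986), H2az2 (0.119) and Ezr (0.121). These were the closest of 11176 candidate genes over just 4 arrays, and near profiles describe these arrays only.

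Several ligands of these receptors changed in the same arrays. Of 17 ligand genes of the family listed, 8 passed the floor. limma found that 3 rose and 3 fell, where 22.0% and 22.8% of all genes did, and 2 were not called. Ltb, for lymphotoxin beta, read 10.37 and 6.35 in wild type and 10.55 and 5.93 in Tilcara, without and with stimulation. It fell (limma, log2 change −4.32, SE 0.2, adjusted p = 0.00109). Tnfsf10 was called as falling but passed the floor in non-stimulated wild type alone, and without the filter its limma adjusted p was 0.079. Tnf, for the ligand of both TNF receptors, read 7.31 and 10.18 in wild type and 7.43 and 8.72 in Tilcara, without and with stimulation, and rose (limma, log2 change 2.08, SE 0.40, adjusted p = 0.0161). The stimulated Tilcara array was 1.47 lower than the stimulated wild-type array, and Tnfrsf1b was lower there by 0.38. Lta, for lymphotoxin alpha, which binds the same receptors, read 7.14 and 6.29 in wild type and 6.93 and 5.85 in Tilcara, and fell (limma, log2 change −0.96, SE 0.16, adjusted p = 0.00962).

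The ligands of OX40 and GITR were highest in stimulated Tilcara. Tnfsf4, for OX40 ligand, read 2.71 and 4.80 in wild type and 2.87 and 7.59 in Tilcara, and rose (limma, log2 change 3.40, SE 0.64, adjusted p = 0.0147); its non-stimulated signals lay under the floor, so it too entered the fit through its stimulated arrays. The stimulated Tilcara array exceeded the stimulated wild-type array by 2.79. Tnfsf18, for GITR ligand, its neighbour on mouse chromosome 1 in GRCm38.p6, read 2.19, 2.36 and 2.06 in the other arrays and 4.96 in stimulated Tilcara, the one array in which it passed the floor (limma, adjusted p = 0.129). The receptors did not share this pattern: Tnfrsf4 was level between the stimulated arrays and Tnfrsf18 was lower in Tilcara.

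The other paired ligands were close to the floor. Tnfsf13b, for BAFF, read 3.35 and 4.17 in wild type and 3.09 and 3.70 in Tilcara, without and with stimulation. It passed the floor in stimulated wild type alone and entered the fit through that array, so its call (limma, log2 change 0.72, SE 0.15, adjusted p = 0.0212) is no independent support for a rise. Tnfsf9, for the ligand of CD137, read 4.12 and 3.86 in wild type and 3.63 and 2.74 in Tilcara and was not called (limma, adjusted p = 0.0851). Cd40lg (1.63 to 3.02), Fasl (2.95 to 3.45) and Cd70 (1.94 to 2.92), ligands that T cells make on activation, stayed under the floor in all 4 arrays. Tnfsf13, for APRIL, shares its probe set with other genes and was not used.

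**Figure D5:**
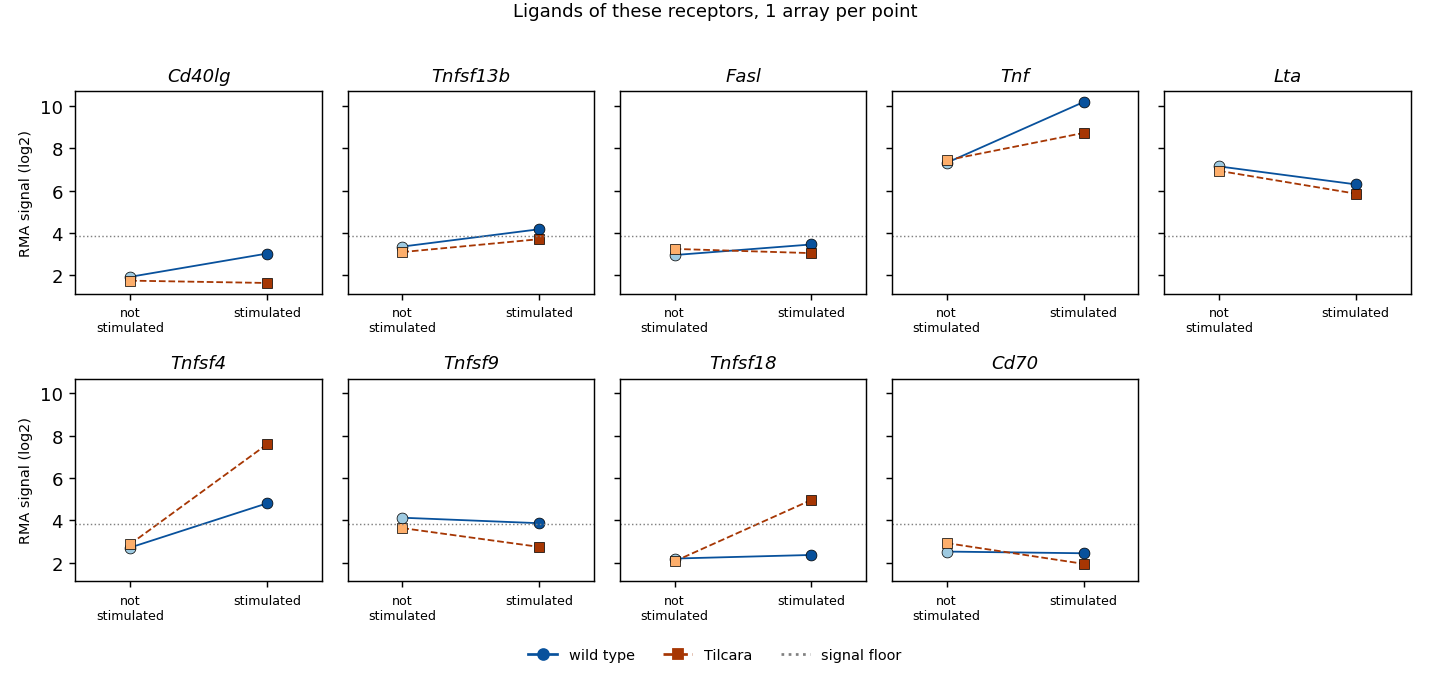
RMA log2 signal (vertical axis, the same range in each panel) of 9 ligand genes of these receptors without and with stimulation, in wild type (circles, solid lines) and Tilcara (squares, dashed lines); each point is 1 array and the dotted line is the signal floor of 3.83. Tnf ends higher in wild type (10.18 against 8.72), Tnfsf4 and Tnfsf18 end higher in Tilcara (7.59 against 4.80 and 4.96 against 2.36), and Cd40lg, Fasl and Cd70 stay under the floor.

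Among 18 other receptors of the family, 10 passed the floor in some array. limma found that 4 of these rose and none fell with stimulation, where 22.0% and 22.8% of all genes did. Tnfrsf21, for the death domain receptor DR6, read 4.17 and 5.64 in wild type and 3.94 and 5.74 in Tilcara and rose (limma, log2 change 1.63, SE 0.17, adjusted p = 0.00312). Tnfrsf23, for a mouse decoy receptor of the ligand TRAIL, read 1.86 and 4.42 in wild type and 3.18 and 4.91 in Tilcara. It passed the floor in the stimulated arrays only and entered the fit through them, so its place among the 4 is no independent support for a rise. Tnfrsf12a, for the receptor of TWEAK, and Tnfrsf22, another decoy receptor, rose by 1.02 and 0.92. The median stimulation difference of the 18 was −0.03 in wild type and 0.18 in Tilcara, against 0.03 and 0.04 over all genes.

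By limma, 22.0% of all genes rose and 22.8% fell. Of 13 measured genes for TRAF proteins and their partners, 3 rose, 7 fell and 3 were not called. Traf1, an adaptor that NF-kB induces and that binds Tnfrsf1b and CD40 complexes, was the one gene of this list to differ 2-fold between the stimulated arrays: it read 5.93 and 7.37 in wild type and 5.99 and 5.67 in Tilcara. Its response was 1.44 in wild type and −0.33 in Tilcara (limma, adjusted p = 0.364). Traf5, an adaptor of CD40, CD27 and OX40, fell (limma, log2 change −2.32, SE 0.23, adjusted p = 0.00286), as did Traf3ip3 (log2 change −4.36), whose response was −4.92 in wild type and −3.79 in Tilcara, Trafd1 (−1.64) and the ubiquitin ligase gene Birc3 (−1.53). Traf4 and Tank rose, by 1.61 and 1.44. Traf3 and Ripk1 were not analysed here.

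Of the 6 tested genes of the death pathway below Fas and the type 1 TNF receptor, Casp8, for the initiating caspase, fell (limma, log2 change −2.45, SE 0.19, adjusted p = 0.00183). Cflar, for the caspase-8 inhibitor c-FLIP, rose (limma, log2 change 1.42, SE 0.24, adjusted p = 0.0105), with signals of 7.43 and 9.25 in wild type and 7.36 and 8.39 in Tilcara. Ripk3, for a kinase of necroptosis, fell (limma, log2 change −1.13, SE 0.27, adjusted p = 0.0277) and was higher by 1.07 in stimulated Tilcara than in stimulated wild type. Thus 1 of the 6 rose and 2 fell, where 22.0% and 22.8% of all genes did, and the other 3 were not called.

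Among 13 genes of the kinases and ubiquitin enzymes between the receptors and NF-kB, 3 rose, 4 fell and 6 were not called. Over all genes 22.0% rose and 22.8% fell. Tnfaip3, for the feedback inhibitor A20, read 6.92 and 9.70 in wild type and 6.87 and 8.19 in Tilcara and rose (limma, log2 change 2.05, SE 0.38, adjusted p = 0.0137), standing 1.51 lower in stimulated Tilcara. Cyld, for a deubiquitinase, fell by 1.65, Ikbkb, for an IkB kinase, by 1.12 and Map3k14, for the kinase NIK of the non-canonical pathway, by 0.90. Of 7 NF-kB and IkB genes, 3 rose and none fell; the IkB genes Nfkbib and Nfkbie differed by 1.45 and 1.05 in wild type and by 1.05 and 0.65 in Tilcara.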

How the data were processed

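Expression was measured on 4 Affymetrix arrays, 1 for each group named in the sample titles. The deposited values are log2 signals of 41345 probe sets, which the authors made with RMA per the submitters' processing notes; the version, software and genome build are not given in the sources used. RMA normalizes quantiles between arrays (medians 3.73 to 3.79 here), so a change in total RNA per cell would not be seen.

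The platform annotation gave 23521 probe sets 1 symbol, 1814 several and 16010 none; only the first were named, and the brightest stood for its gene. All 10 receptor genes had 1 such probe set; a further probe set shared by Tnfrsf18 and another gene was not used. Genes whose highest value reached 3.83 entered the fit.

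Differences between single arrays carry no test and were counted at 2-fold. limma 3.58.1 in R 4.3.3 (lmFit, eBayes, Benjamini-Hochberg, threshold 0.05) fitted stimulation and genotype over the 4 arrays; "rose" and "fell" are its calls. The fit was tested on simulated data. Alternatives were median centring, cyclic loess, the mean over probe sets, no filter, a trended prior, leaving out the other factor, and a 1.5-fold limit. The receptors, the lists of ligands, adaptors and markers and the rules were chosen with earlier results of these data known. Beyond the receptors and their ligands, named genes were those of each pathway list with the largest differences of at least 2-fold, up to 4 per comparison, markers that differed 2-fold by genotype or define a cell type, and the 4 nearest profiles of the 3 receptors with the widest range.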

Additional observations from a re-analysis of the deposited data

Results flagged for a closer look

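The 10 receptors were considered at any size of response, and the other listed receptors, ligands and signalling genes only where a response reached 2-fold in 1 genotype. Under that rule the array pairs of 4 genes moved in opposite directions in the genotypes; the differences were not tested. Cd27 differed by −1.03 with stimulation in wild type and by 0.12 in Tilcara, a difference between responses of 1.14. Tnfrsf1a differed by 0.27 and −0.25 (difference −0.51), with each signal under the floor. Cd40lg differed by 1.10 and −0.11 (difference −1.21), also under the floor throughout. Traf1 differed by 1.44 and −0.33 (difference −1.77).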

How the results depend on the processing

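With a limit of 1.5-fold in place of 2-fold, 2 receptors in place of 0 were higher and 3 in place of 1 were lower in stimulated Tilcara, and the difference between responses passed the limit upwards in 2 and downwards in 4 in place of 1 each. The counts of receptors past 2-fold in the 5 comparisons, and those that limma called, stayed within 1.5 times under median centring, cyclic loess and the mean over probe sets, and limma's also without the filter, with a trended prior and without the other factor. No single gene's called difference changed sign. Tnfrsf9 lost its limma call under 4 of 6 alternatives and Tnfrsf13c under 1; of the signalling and ligand genes, Tnfsf10, Tradd and Map3k7 lost and Daxx and Tab2 gained a call under at least 1. All receptors have 1 probe set, so the mean over probe sets changes none of their values. No paired analysis was possible because each group is 1 array and the labels carry no replicate numbers. Leaving out an array would remove a whole group and leave the additive fit without residual degrees of freedom. Precision is limited by the number of arrays, and for Tnfrsf1a, Tnfrsf9, Cd40lg, Fasl, Cd70 and Tnfsf18 also by signals near or under the floor.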
